A study of Mus musculus with 12 samples.

Results

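A set of 7 genes was chosen by name, with earlier results of these data known. It held the coactivator *Ppargc1b*, the nuclear receptor *Esrra*, the transcription factors *Nrf1*, *Gabpa* and *Myc*, and the mitochondrial DNA factors *Tfam* and *Polg*. All 7 were found among the 24421 genes that each of the 12 libraries lists. Their RNA was measured by RNA-seq in bone marrow-derived macrophages (BMMs), the precursors of osteoclasts, and is given as CPM, the reads of a gene scaled to a common total of reads on genes. In the loss of function experiment, BMMs of C57BL/6 mice had the genotype Mir182+/+LysMcre(+), called WT, or Mir182flox/floxLysMcre(+), called *Mir182*ΔM/ΔM or *Mir182*-deleted here, and were sequenced without RANKL (basal) or after 5 days of RANKL. In the gain of function experiment, basal BMMs were LysMcre(+), called Control, or LSL-Mir182LysMcre(+), called *Mir182*mTg. Every group thus carried LysMcre, a Cre driven by the lysozyme M promoter of myeloid cells. *Mir182* was deleted, or expressed from the Rosa26 locus, only in cells that had used this promoter. Bone marrow was grown with M-CSF for 3 days before treatment, and each of the 6 conditions had 2 libraries. Nothing in the labels says whether the libraries of a condition came from separate mice. The p-values therefore measure the spread between the 2 libraries of each condition, pooled over the conditions of a fit. Without a replicate block, that spread includes the difference between replicate numbers described below.

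Osteoclasts are rich in mitochondria, and RANKL, the cytokine that turns macrophages into osteoclasts, is known to induce mitochondrial biogenesis. PGC-1β, the protein of *Ppargc1b*, does not bind DNA itself. It docks on factors such as ERRα (*Esrra*), NRF1 (*Nrf1*) and GABPα (*Gabpa*, the DNA-binding ETS subunit of the factor also called NRF2), which switch on nuclear genes for respiratory chain subunits and for the upkeep of mitochondrial DNA. TFAM packages and helps to transcribe mitochondrial DNA, and POLG is the catalytic subunit of the polymerase that copies it. MYC drives cell growth, ribosome biogenesis and metabolism, and nuclear genes for mitochondria are among its targets.

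*Nrf1* was the member closest to the manipulated locus. In GENCODE vM21 (GRCm38, also called mm10) it lies on the plus strand of chr6:30047988-30153458, and the *Mir182* gene lies on the minus strand of the same chromosome, 12.5 kb beyond its 3′ end. The mature miRNA, from chr6:30165962-30165986 on the minus strand (RefSeq, GRCm38.p6), is shown with its seed, bases 2 to 8, in capitals, since it defines the sites that a lost or added *Mir182* would read.
miR-182-5p: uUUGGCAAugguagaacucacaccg
The complement of the seed, TTGCCAA, was present in the longest annotated 3′ UTR of 1 member, *Nrf1*, at base 1677 of 1781. Of the 19523 measured genes with an annotated 3′ UTR, 12.1% held this heptamer. The *Nrf1* site, in capitals within chr6:30153346-30153368 on the plus strand, read as follows.
Nrf1 site: ttgagaaaTTGCCAAgaagataa
The other heptamer searched, TGCCAAA, pairs with bases 2 to 7 and has an A opposite base 1. It was in no member's 3′ UTR and in 13.4% of those of all genes. These matches are descriptions of sequence and do not show that a site is used. Of the other members, *Polg* lies at chr7:79446231-79466362 (minus strand), *Tfam* at chr10:71225464-71238280 (minus strand), *Myc* at chr15:61985391-61990374 (plus strand), *Gabpa* at chr16:84834925-84863779 (plus strand) and *Esrra* at chr19:6910977-6921813 (minus strand).

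The promoters of the members were also searched for short sequence motifs. RefSeq (GRCm38.p6) promoter windows of 300 bases, from 250 before to 50 after a start, were found for *Esrra*, *Nrf1*, *Tfam*, *Gabpa* and *Polg*, and not for *Ppargc1b* and *Myc*. The ETS motif CCGGAAG, the core that GABPα binds, was present on either strand in 3 of these 5 genes and in 8.86% of all 32851 windows. The 3 matches are shown because they lie in *Gabpa* itself and in both genes for mitochondrial DNA upkeep. Capitals mark the motif, which reads CTTCCGG where it is on the other strand, and lines run along the gene's own strand.
Gabpa: ggtaagtgCTTCCGGgtccctca
Tfam: gccgcggaCCGGAAGtccgggct
Polg: gacctcacCCGGAAGtccctctg
They are at chr16:84835023-84835045 (plus strand, 93 bases before the start), chr10:71238077-71238099 (minus strand, 47 bases before) and chr7:79466297-79466319 (minus strand, 38 bases before). The E-box CACGTG of MYC, the palindromic NRF1 element, the ERR element TCAAGGTCA and the cAMP element TGACGTCA were in none of the 5 genes' windows. They were in 7.15%, 0.971%, 0.423% and 1.79% of all windows, on either strand. Only exact copies of each motif within these windows were sought, so variant sites were not counted. A match does not show that a site is bound.

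The reads counted on genes were between 24951280 and 33050619 per library, and every member had at least 91 reads in every library. The *Mir182* row had 79 and 123 reads in the *Mir182*mTg libraries and at most 1 read in each other library, WT included, so it checks the transgene and not the deletion. *Lyz2*, the gene whose promoter drives LysMcre, was at 22.5 to 44.0 CPM in the WT basal libraries and in all *Mir182*-deleted libraries. It was at 4117 to 7062 CPM in the WT RANKL, Control and *Mir182*mTg libraries. *Ifi202b*, an interferon-inducible gene that varies between mouse strains, split the libraries in the same way, with 82.1 to 152 CPM in the first set and at most 1.12 CPM in the second. The libraries labelled WT with RANKL therefore stood with the gain of function libraries and apart from the WT basal libraries. The WT response to RANKL, the comparison of genotypes after RANKL and their interaction all rest on them and share them, and the WT response and the interaction were also computed with Control basal libraries as the WT baseline. The 8 osteoclast marker genes summed to 9938 to 10274 CPM in WT cells after RANKL, 3070 to 3079 CPM in *Mir182*-deleted cells after RANKL and 39.7 to 74.9 CPM in the basal libraries. The 7 macrophage markers were all present in every condition. With RANKL 7 of 7 fell in WT cells, from 8468 to 8655 CPM in sum to 5683 to 5744 CPM, and 4 of 7 fell in *Mir182*-deleted cells, from 7624 to 7629 CPM to 6011 to 6097 CPM. All 4 granulocyte markers tested fell with RANKL in each genotype and were lower in *Mir182*-deleted than in WT cells after it, with sums of 3.70 to 4.24 against 11.7 to 13.2 CPM. Of all genes tested 22% fell in WT and 26.4% in *Mir182*-deleted cells, and 30.9% were lower in *Mir182*-deleted cells after RANKL. The part of granulocytes in the members' RANKL values was not tested, and lymphoid markers reached at most 0.306 CPM in sum.

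*Ppargc1b* had the widest relative range of the 7 genes, from 3.65 to 54.6 CPM. In the WT basal libraries it was at 4.25 and 3.65 CPM, and in the WT RANKL libraries at 54.6 and 49.0 CPM. In the *Mir182*-deleted libraries it was at 5.48 and 5.56 CPM without RANKL and at 13.7 and 12.4 CPM after it. The basal libraries of both genotypes lay far below those with RANKL, and the WT RANKL libraries lay far above those of *Mir182*-deleted, without overlap. In the limma fit on log2(CPM + 1), *Ppargc1b* rose with RANKL by 3.42 ± 0.107 (log2 fold change ± SE, adjusted p = 4.57e-07) in WT cells, a 13.1-fold change of the mean CPM. It rose by 1.11 ± 0.107 (adjusted p = 1.16e-04) in *Mir182*-deleted cells, a 2.36-fold change. The level after RANKL was lower in *Mir182*-deleted than in WT cells by a log2 difference of -1.91 ± 0.107 (adjusted p = 1.61e-05). The difference between the 2 responses was itself called, at -2.31 ± 0.151 (adjusted p = 1.15e-04). With Control basal as the WT baseline the WT response was 3.25 (adjusted p = 2.17e-08) and the difference -2.15 (adjusted p = 7.45e-06).

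*Esrra*, whose protein ERRα is a main partner of PGC-1β, was at 32.3 and 39.0 CPM in WT basal libraries and at 64.8 and 81.7 CPM after RANKL. The *Mir182*-deleted cells had 32.3 and 37.8 CPM without RANKL and 39.5 and 42.1 CPM after it. The WT RANKL libraries were thus above all other libraries of the series, the highest of which was a Control library with 49.4 CPM. *Esrra* rose by 1.01 ± 0.143 (log2, adjusted p = 6.59e-04) in WT cells, or by 0.71 (adjusted p = 0.00387) with Control basal as the baseline. In *Mir182*-deleted cells the difference was 0.22 ± 0.143 (adjusted p = 0.232), with a 95% interval from -0.12 to 0.56. After RANKL the level in *Mir182*-deleted cells was lower than in WT cells by a log2 difference of -0.82 ± 0.143 (adjusted p = 0.00324). The responses differed by -0.80 ± 0.203 (adjusted p = 0.028). This last call was lost with TMM scaling, at -0.63 (adjusted p = 0.0754), and with Control basal as the WT baseline, at -0.49 (adjusted p = 0.0943). It was also lost when WT basal 1, WT RANKL 2, *Mir182*-deleted basal 2 or either *Mir182*-deleted RANKL library was left out, with *Esrra* at adjusted p from 0.0654 to 0.0907.

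In bulk RNA, fewer cells of a type and less RNA per cell cannot be told apart. Of the osteoclast markers 8 of 8 rose with RANKL in each genotype, where 40.6% of all genes rose in WT and 30.4% in *Mir182*-deleted cells. After RANKL 7 of 8 were lower in *Mir182*-deleted than in WT cells, against 30.9% of all genes. The other marker, *Calcr*, was at 9.37 against 9.39 CPM. *Ppargc1b* had the same directions in all 3 comparisons, and *Esrra* in those with WT cells, while its difference in *Mir182*-deleted cells did not pass. The part of a smaller share of osteoclasts in these results was not tested.

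**Figure D1:**
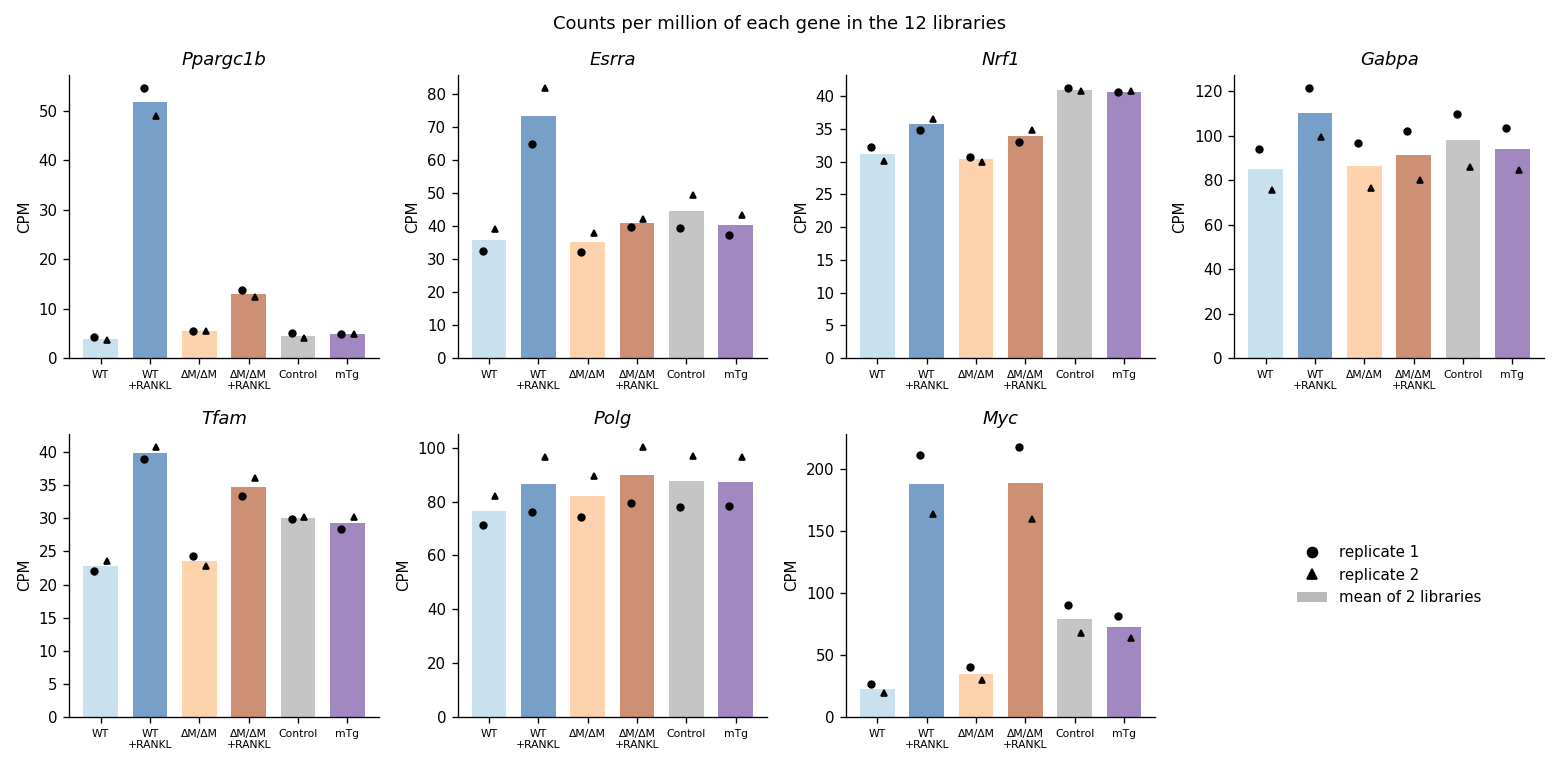
CPM of each of the 7 genes (vertical axes from 0) in the 6 conditions, with bars for the mean of 2 libraries, circles for replicate 1 and triangles for replicate 2. ΔM/ΔM stands for Mir182-deleted cells and mTg for Mir182mTg. Ppargc1b and Esrra are highest in WT cells after RANKL, at means of 51.8 and 73.2 CPM, while Myc is at 188 and 189 CPM after RANKL in WT and Mir182-deleted cells.

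The other DNA-binding partners of PGC-1β moved by less than *Esrra* in WT cells, a contrast that was not tested. *Nrf1* stayed between 29.96 and 41.2 CPM in the 12 libraries. It was at 32.2 and 30.1 CPM in WT basal libraries, at 34.9 and 36.6 CPM in WT cells after RANKL, at 30.7 and 29.96 CPM in *Mir182*-deleted basal libraries and at 33.04 and 34.8 CPM in *Mir182*-deleted cells after RANKL. Its RANKL libraries lay above its basal libraries in each genotype, without overlap. The WT response of *Nrf1* was 0.19 ± 0.076 (adjusted p = 0.058), or -0.01 with TMM scaling and -0.19 (adjusted p = 0.0292) with Control basal as the baseline, so that its direction depended on the scaling and on the baseline. *Nrf1*, the member beside the *Mir182* locus and with a seed match, did not pass the test between the genotypes. The difference was -0.07 (95% interval -0.25 to 0.11) after RANKL, or 0.07 with TMM scaling, and -0.04 (-0.21 to 0.14) without it. The 2 responses of *Nrf1* differed by -0.04 (adjusted p = 0.843), or by 0.35 (adjusted p = 0.0107) with Control basal as the WT baseline and 0.12 with TMM scaling.

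*Gabpa* was at 94.0 and 75.6 CPM in WT basal libraries and at 121 and 99.3 CPM in WT cells after RANKL. The values were 96.5 and 76.4 CPM in *Mir182*-deleted cells without RANKL and 102 and 80.2 CPM in those with it. Replicate 2 was the lower library in each condition, and the spread between replicates was as wide as most differences between conditions. Its WT response was 0.38 ± 0.178 (adjusted p = 0.104) and its difference between genotypes after RANKL was -0.28 ± 0.178 (adjusted p = 0.249). With Control basal as the baseline the WT response of *Gabpa* was 0.17 (adjusted p = 0.477).

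*Tfam* was at 22.0 and 23.6 CPM in WT basal libraries and at 38.9 and 40.8 CPM after RANKL. In *Mir182*-deleted cells it was at 24.4 and 22.8 CPM without RANKL and at 33.4 and 36.2 CPM after it. The libraries with RANKL lay above the basal ones in each genotype, with WT above *Mir182*-deleted. *Tfam* rose by 0.78 ± 0.083 (log2, adjusted p = 1.62e-04) in WT cells and by 0.54 ± 0.083 (adjusted p = 0.00123) in *Mir182*-deleted cells. The difference between genotypes after RANKL was -0.19 ± 0.083 (adjusted p = 0.102), or -0.05 with TMM scaling, and the 2 responses differed by -0.24 (adjusted p = 0.192). With Control basal as the WT baseline, the WT response of *Tfam* was 0.39 (adjusted p = 0.00168) and the difference between the responses turned to 0.15 (adjusted p = 0.279), or 0.18 with TMM scaling as well.

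*Polg* was at 71.2 and 82.0 CPM in WT basal libraries, at 76.2 and 96.6 CPM in WT cells after RANKL, at 74.2 and 89.7 CPM in *Mir182*-deleted basal libraries and at 79.5 and 100.3 CPM after RANKL. These ranges overlapped in every pair of conditions compared in the loss of function experiment. Its WT response was 0.17 (95% interval -0.22 to 0.55, adjusted p = 0.408), or -0.04 with TMM scaling and -0.02 with Control basal as the baseline, and its difference between genotypes after RANKL was 0.06 (-0.33 to 0.44).

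*Myc* reached overlapping levels after RANKL in both genotypes. It was at 26.3 and 19.2 CPM in WT basal libraries and at 40.03 and 29.9 CPM in *Mir182*-deleted basal libraries. After RANKL it was at 212 and 164 CPM in WT and at 218 and 160 CPM in *Mir182*-deleted cells. The RANKL libraries of the genotypes overlapped, and the basal ones did not. By *Lyz2* and *Ifi202b* the WT RANKL libraries stood apart from the WT basal and all *Mir182*-deleted libraries. The part of that split in the WT response of *Myc* and in its comparison of genotypes after RANKL was not tested. *Myc* rose by 2.99 ± 0.228 (log2, adjusted p = 2.88e-05) in WT cells, which is 8.25-fold by the mean CPM, and by 2.40 ± 0.228 (adjusted p = 1.07e-04), or 5.40-fold, in *Mir182*-deleted cells. After RANKL the genotypes differed by 0.00 (95% interval -0.54 to 0.54, adjusted p = 0.997), or by 0.15 (adjusted p = 0.636) with TMM scaling. The 2 responses differed by -0.60 ± 0.322 (adjusted p = 0.233). With Control basal as the WT baseline the WT response was 1.24 (adjusted p = 0.00191) and this difference turned round to 1.15 ± 0.338 (adjusted p = 0.0198), because *Myc* was higher in Control than in WT basal libraries.

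**Figure D2:**
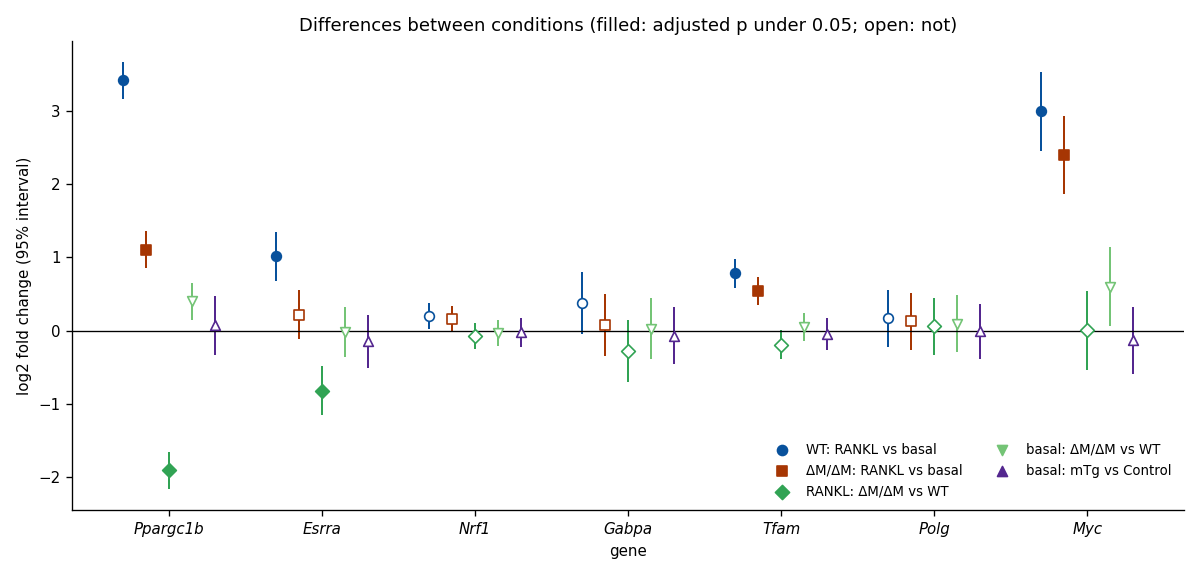
Log2 fold changes (vertical axis) with 95% intervals for each gene in 5 comparisons, from limma on log2(CPM + 1), or from edgeR for Mir182mTg against Control. Filled symbols passed an adjusted p of 0.05. Ppargc1b and Esrra are the genes with filled symbols below 0, at -1.91 and -0.82 in Mir182-deleted against WT cells after RANKL.

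Across the members, 4 of 7 rose with RANKL in WT cells and none fell, while 62.5% of the 11691 genes tested changed and 40.6% rose. Among the *Mir182*-deleted libraries 3 of 7 rose, against 56.8% of genes that changed and 30.4% that rose. After RANKL 2 of 7 were lower in *Mir182*-deleted cells, against 45.1% of genes that differed and 30.9% that were lower. The interaction was called for 2 of 7, against 24.6% of genes, and 17.1% in the same direction. With so many genes called, these counts do not set the 7 genes apart. The median log2 change of all genes tested was 0.19 in the WT response and -0.15 between the genotypes after RANKL. TMM scaling, which sets its factor without the genes of most extreme ratio or level between libraries, brought both to -0.01. The changes of *Ppargc1b*, *Esrra*, *Tfam* and *Myc* in WT cells exceeded that shift, at 3.22, 0.81, 0.58 and 2.79 with TMM, and all 4 were called, as were 59.2% of all genes.

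The replicate number marked a difference between libraries that most members shared. Replicate 1 is labelled as poly-A RNA and replicate 2 as total RNA, although the protocol text of each describes poly-A selection. *Rn45s*, the ribosomal RNA precursor, was at 742 to 1176 CPM in replicate 1 and at 9778 to 21273 CPM in replicate 2. *Myc* was lower in replicate 2 in 6 of 6 conditions, at 0.732 to 0.776 of its level in replicate 1. *Gabpa* was lower in 6 of 6, at 0.780 to 0.818, while *Polg* and *Esrra* were higher in 6 of 6, at 1.15 to 1.27 and 1.06 to 1.26. *Nrf1*, *Tfam* and *Ppargc1b* were on either side of 1 in different conditions. The starting RNA, the alignment program and the replicate cannot be told apart.

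**Figure D3:**
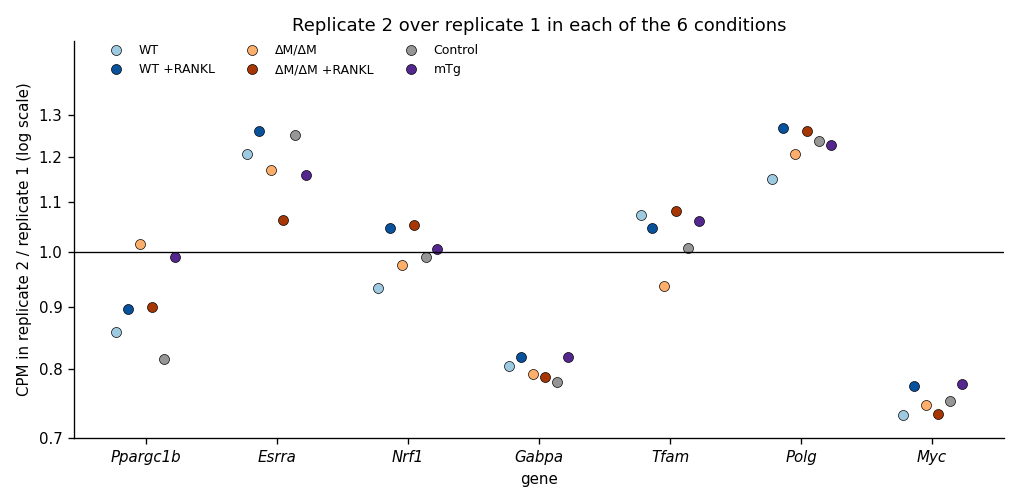
CPM in replicate 2 divided by CPM in replicate 1 (vertical log scale) for each gene, with 1 point per condition. Points for Gabpa and Myc all lie below 1, between 0.780 and 0.818 and between 0.732 and 0.776, and points for Esrra and Polg all lie above 1.

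A fit with the replicate number as a block removes this shared difference from the error. With it all 7 members rose in WT cells, among them *Gabpa* by 0.38 ± 0.038 (adjusted p = 9.76e-09), *Nrf1* by 0.19 ± 0.059 (adjusted p = 0.0052) and *Polg* by 0.17 ± 0.042 (adjusted p = 0.00122), when 81.8% of all genes were called. With TMM scaling as well, *Nrf1* at -0.01 and *Polg* at -0.04 were not called and *Gabpa* rose by 0.17 (adjusted p = 4.32e-04), against 79.9% of genes called. In *Mir182*-deleted cells 6 of 7 rose, against 79% of genes called, and those added were *Esrra* at 0.22 (adjusted p = 0.00144), *Nrf1* at 0.16 (adjusted p = 0.021) and *Polg* at 0.13 (adjusted p = 0.00918). With TMM scaling as well, *Nrf1* at 0.11 (adjusted p = 0.0847) and *Polg* at 0.08 (adjusted p = 0.0713) lost that call, against 78.7% of genes called. After RANKL *Gabpa* at -0.28 (adjusted p = 1.53e-06) and *Tfam* at -0.19 (adjusted p = 0.0099) were also lower in *Mir182*-deleted cells, which made 4 of 7 against 73.2% of genes. With TMM scaling and the block, however, *Tfam* at -0.05 (adjusted p = 0.516) was not called, *Gabpa* stayed lower at -0.13 (adjusted p = 0.00491), and *Polg* at 0.20 (adjusted p = 2.77e-04) and *Myc* at 0.15 (adjusted p = 0.00314) were called higher, against 69.5% of genes. The interaction was called for 5 of 7, with *Gabpa* at -0.30, *Tfam* at -0.24 and *Myc* at -0.60 added, against 58.9% of genes. Of these, *Tfam* was lost with TMM scaling and the block, at -0.08 (adjusted p = 0.464), while *Gabpa* was at -0.14 (adjusted p = 0.0325) and *Myc* at -0.44 (adjusted p = 4.76e-06), against 51.8% of genes. With Control basal and the block *Gabpa* was at -0.10 (adjusted p = 0.0789), *Tfam* turned to 0.15 (adjusted p = 0.119) and *Myc* to 1.15 (adjusted p = 3.93e-15).

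Without RANKL, no member passed the adjusted threshold between the genotypes in the fit without a block. None was called by limma, 2 had an unadjusted p under 0.05, and edgeR on the recovered reads called none, while 3.81% of all genes were called. The 2 were *Ppargc1b*, at 0.40 ± 0.107 (adjusted p = 0.108), and *Myc*, at 0.60 ± 0.228 (adjusted p = 0.252). In each of these genes both *Mir182*-deleted libraries lay above both WT libraries. With the replicate block both passed, with adjusted p = 0.00112 for *Ppargc1b* and 4.77e-10 for *Myc*, against 31.2% of genes called. Of the 8 cycling markers 5 were higher in *Mir182*-deleted basal cells without the block, where 2.71% of all genes were higher. They summed to 2220 to 2423 CPM against 1682 to 1883 CPM in WT for all 8, and their part in the *Myc* values was not tested.

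The added *Mir182* likewise moved no member in edgeR's test of counts. In Control and *Mir182*mTg libraries, *Ppargc1b* was at 5.01 and 4.08 against 4.84 and 4.798 CPM, *Esrra* at 39.4 and 49.4 against 37.4 and 43.3 CPM, and *Nrf1* at 41.2 and 40.8 against 40.6 and 40.8 CPM. *Gabpa* was at 110 and 85.7 against 103 and 84.4 CPM, *Tfam* at 29.98 and 30.2 against 28.4 and 30.2 CPM, and *Polg* at 78.2 and 96.8 against 78.5 and 96.4 CPM. *Myc* was at 90.2 and 67.8 against 81.7 and 63.4 CPM. The groups overlapped for all 7 genes. The log2 differences lay between -0.15 for *Esrra* and 0.07 for *Ppargc1b*, with 0 of 7 called by edgeR, none at an unadjusted p under 0.05 and none by DESeq2 or limma, while 0.257% of 12081 genes were called. The 95% intervals reached from -0.51 to 0.21 for *Esrra* and from -0.59 to 0.33 for *Myc*, so changes within these bounds could not be seen. With the replicate block *Myc* was called lower by -0.13 ± 0.039 (adjusted p = 0.0315), against 15.1% of genes called.

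The basal libraries of the 2 control groups were not alike. *Myc* was at 90.2 and 67.8 CPM in Control and at 26.3 and 19.2 CPM in WT basal libraries, a difference of 1.75 ± 0.239 (log2, adjusted p = 2.66e-04) in the limma fit of 12 libraries. *Nrf1* and *Tfam* were higher in Control by 0.39 ± 0.064 (adjusted p = 8.23e-04) and 0.39 ± 0.074 (adjusted p = 0.002), without overlap. In all 3 of 7 members were called, against 51.9% of 11794 genes, and with the replicate block 6 of 7, all but *Ppargc1b* at 0.16 (adjusted p = 0.11), against 74.9% of genes. By their labels both groups carry LysMcre and neither has a changed *Mir182*. The 2 experiments were deposited in different units. *Lyz2* was at 44.0 and 39.8 CPM in WT basal and at 5783 and 6615 CPM in Control libraries. *Ifi202b* was at 112 and 93.4 CPM against 0 CPM. The experiment and this split cannot be told apart, and their part in these differences was not tested. All 8 cycling markers were also higher in Control, at 3120 to 3281 CPM in sum, against 32.4% of all genes that were higher. Their part in the *Myc* difference was not tested.

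**Figure D4:**
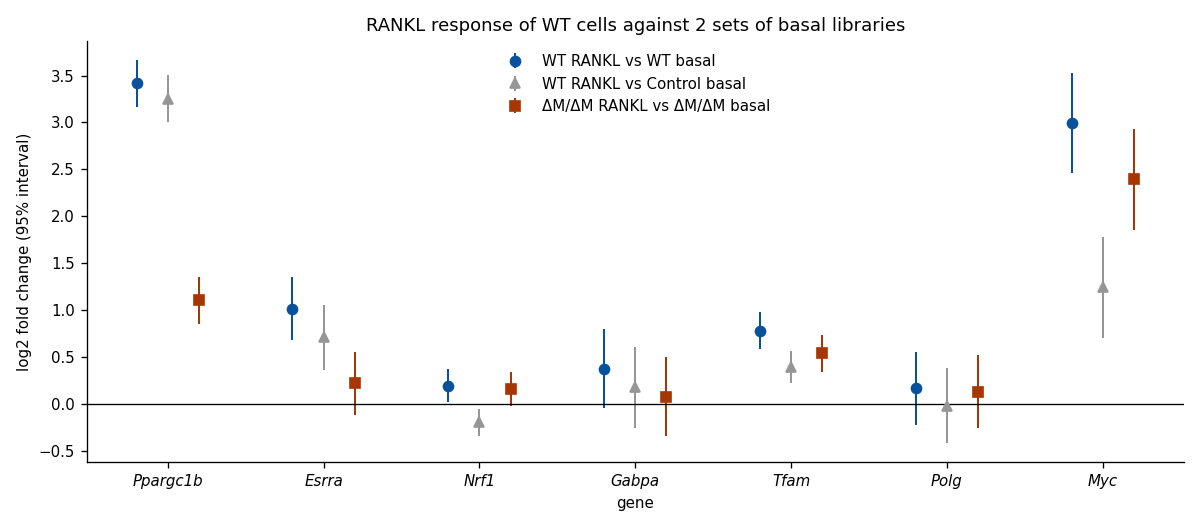
Log2 fold change with RANKL (vertical axis, 95% intervals) of WT cells against WT basal libraries or against Control basal libraries, and of Mir182-deleted cells against their own basal libraries. Myc in WT cells is at 2.99 with the first baseline and 1.24 with the second, whereas Ppargc1b is at 3.42 and 3.25.

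With Control basal as the baseline, the 4 genes that rose against WT basal libraries also rose, and *Nrf1* was called lower, when 52.7% of 11794 genes were called. The WT response moved most for *Myc*, followed by *Nrf1* and *Tfam*, the 3 members called higher in Control than in WT basal libraries. In the interaction with this baseline *Ppargc1b* was lower and *Nrf1* and *Myc* higher, which made 3 of 7 against 47.3% of genes.

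By level per kilobase, which allows genes to be compared, *Myc* ranked first of the 7 genes in WT cells after RANKL, at 78.3 ± 14.1 CPM per kb (SD, n = 2), and was the fourth in WT basal libraries, at 9.49 ± 2.08. *Ppargc1b* ranked last in WT basal libraries, at 1.08 ± 0.117 CPM per kb, and was the fifth after RANKL, at 14.2 ± 1.09. In *Mir182*-deleted cells after RANKL it was still last, at 3.57 ± 0.266 CPM per kb. *Esrra*, *Gabpa* and *Polg* lay within each other's spread in WT basal libraries, at 15.9 ± 2.11, 17.0 ± 2.60 and 16.7 ± 1.65 CPM per kb. *Nrf1* and *Tfam* had 5.83 ± 0.283 and 5.82 ± 0.293 CPM per kb there.

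Ordered by CPM over the 6 conditions, *Ppargc1b* ran from WT with RANKL through *Mir182*-deleted with RANKL to the *Mir182*-deleted basal libraries without overlap of neighbours. Its lowest conditions, *Mir182*mTg, Control and WT basal, overlapped as neighbours. For *Esrra* the WT RANKL libraries stood alone, and each neighbouring pair among the other conditions overlapped. *Gabpa* and *Polg* overlapped between all neighbours. *Nrf1* was highest in Control and *Mir182*mTg libraries, at means of 41.0 and 40.7 CPM, above WT with RANKL at 35.7 CPM. *Tfam* fell in steps without overlap from WT with RANKL to *Mir182*-deleted with RANKL, to Control and *Mir182*mTg together and to both loss of function basal groups. *Myc* had the 2 RANKL groups together at the top, then Control with *Mir182*mTg, then *Mir182*-deleted basal and last WT basal, the last steps without overlap.

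Over the 12 libraries on the log2(CPM + 1) scale, Pearson's r between members was highest for *Tfam* and *Myc*, at 0.93, followed by *Ppargc1b* with *Esrra* at 0.82 and with *Tfam* at 0.82. It was -0.54 for *Gabpa* and *Polg*, which had opposite replicate differences, and -0.01 for *Ppargc1b* and *Nrf1*. The points share conditions and replicate numbers, so these values only describe the libraries. Among 9791 genes with a mean of at least 5 CPM, those most like *Ppargc1b* in pattern were *Rufy4*, *Zfand5* and *Itga2*, each at r = 0.99. *Uqcrc1* and *Uqcr11* were among those most like *Esrra*, at 0.99, and *Dhx37*, *Shmt2* and *Cdk5rap2* most like *Myc*, at 0.99. Those most like *Tfam* were *Dst*, *Naa10* and *Fkbp4*, at 0.99. *Nrf1* was most like *Tatdn2*, *Cx3cr1* and *Gtf2h2*, at 0.97, *Gabpa* like *Zfr*, *Luc7l2* and *Hnrnpul1*, at 0.97 to 0.98, and *Polg* like *Glrx3*, *Psmb4* and *Mrps18c*, at 0.97.

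Other genes of the PGC-1 pathway were followed as lists, whose counts are read against all genes tested. Like the members, the lists were chosen with earlier results of these data known. In WT cells 40.6% of all genes rose with RANKL and 22% fell, or 28.7% and 30.5% with TMM scaling. In *Mir182*-deleted cells 30.4% rose and 26.4% fell. After RANKL 14.3% were higher and 30.9% lower in *Mir182*-deleted than in WT cells, or 20.6% and 20.5% with TMM scaling, and 23.4% and 49.7% with the replicate block. No test over a list was run. Of the family members and partners of PGC-1 and ERR, 9 of 14 passed the filter on low values, and *Ppargc1a*, *Esrrb*, *Esrrg*, *Perm1* and *Ppara* did not. In WT cells 5 of these 9 rose with RANKL and 2 fell, near the shares of all genes. *Pprc1*, a further PGC-1 relative, rose from 44.2 to 113 CPM (log2 1.34 ± 0.1001, adjusted p = 2.66e-05), *Sirt1*, a deacetylase that acts on PGC-1 proteins, rose from 32.8 to 50.8 CPM, and *Nrip1*, a corepressor of nuclear receptors, rose from 21.6 to 30.7 CPM. The nuclear receptors *Pparg* and *Ppard* fell from 26.3 to 8.52 CPM and from 41.5 to 28.2 CPM. After RANKL *Pparg* was higher in *Mir182*-deleted than in WT cells, at 48.4 against 8.52 CPM (log2 2.38 ± 0.124, adjusted p = 1.19e-05), and *Ppard* was lower, at 6.93 against 28.2 CPM. *Pprc1* was higher by 0.30 (adjusted p = 0.0443), with *Mir182*-deleted at 140 CPM, and *Nrip1* was lower by a log2 difference of -0.77. In all 2 of 9 were higher and 2 lower, and with the replicate block 3 were higher and 6 lower.

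Of 9 genes known as targets of ERRα, 7 were tested, and in WT cells 6 rose with RANKL and none fell, against 40.6% of all genes that rose, with a median log2 change of 1.26 against 0.19 over all genes. *Idh3a*, a subunit of isocitrate dehydrogenase, rose from 43.6 to 204 CPM (2.20 ± 0.066, adjusted p = 3.93e-07), and *Atp5b*, a subunit of ATP synthase, from 674 to 1739 CPM. In *Mir182*-deleted cells 5 of 7 rose, with a median of 0.49. After RANKL 5 of 7 were lower in *Mir182*-deleted cells, with a median of -0.70 against -0.15 over all genes, and 5 were also lower with TMM scaling. *Idh3a* was at 115 against 204 CPM (-0.82 ± 0.066, adjusted p = 8.46e-05) and the deacetylase gene *Sirt3* at 5.52 against 11.0 CPM.

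Of 15 tested genes for copying, packaging and transcribing mitochondrial DNA, 11 rose and 1 fell in WT cells, or 8 and 1 with TMM scaling, against 40.6% and 28.7% of all genes that rose. *Peo1*, the gene of the Twinkle helicase, rose from 9.47 to 24.2 CPM (1.27 ± 0.140, adjusted p = 1.87e-04), the topoisomerase gene *Top1mt* from 3.81 to 8.53 CPM and the protease gene *Lonp1* from 67.0 to 115 CPM. The exonuclease gene *Mgme1* fell from 18.2 to 13.4 CPM. Deleted cells had 7 of 15 that rose and none that fell. After RANKL 7 were lower and 1 higher in *Mir182*-deleted than in WT cells, but with TMM scaling 1 was lower and 1 higher. *Peo1* was lower by a log2 difference of -0.41 (adjusted p = 0.0483) and the RNA polymerase gene *Polrmt* by -0.35 (adjusted p = 0.0485). Of 9 genes on the mitochondrial DNA itself that were looked for, 0 were found among the names listed, so they were not analysed.

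Of 12 genes for protein import and chaperones, 10 rose in WT and 11 in *Mir182*-deleted cells, and none fell, against 40.6% and 30.4% of all genes that rose. The chaperonin gene *Hspd1* rose from 88.9 to 334 CPM (1.90 ± 0.077, adjusted p = 1.50e-06) in WT and from 117 to 273 CPM (1.22 ± 0.077, adjusted p = 1.43e-05) in *Mir182*-deleted cells. The outer membrane receptor and channel genes *Tomm70a* and *Tomm40* rose in WT cells from 75.6 to 233 CPM and from 39.5 to 115 CPM. Of 77 mitochondrial ribosomal protein genes, 57 rose in WT and 48 in *Mir182*-deleted cells, the other genes of the list did not pass and none fell, with medians of 0.62 and 0.43 against 0.19 and 0.05 over all genes. *Mrps6* rose from 13.2 to 80.0 CPM and *Mrpl52* from 9.09 to 47.3 CPM in WT cells. After RANKL 21 ribosomal genes were lower and 2 higher in *Mir182*-deleted than in WT cells, with a median of -0.21 against -0.15 over all genes, and with TMM scaling 7 were lower and 4 higher. With the replicate block and no TMM scaling 49 were lower and 4 higher, when 49.7% of all genes were lower. *Mrps35*, at 20.2 against 45.3 CPM (-1.13 ± 0.079, adjusted p = 4.43e-05), and *Mrpl52*, at 22.1 against 47.3 CPM, were among the lower genes.

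Of 12 genes for fusion, fission and mitophagy, 6 rose and 3 fell in WT cells, or 3 and 5 with TMM scaling, near the shares of all genes at 40.6% and 22%, or 28.7% and 30.5%. *Dnm1l*, the fission GTPase, rose from 104 to 223 CPM (1.09 ± 0.127, adjusted p = 2.44e-04), while the mitophagy genes *Optn* and *Pink1* fell from 22.6 to 9.22 CPM and from 84.4 to 43.3 CPM. After RANKL 9 of 12 were lower in *Mir182*-deleted cells and none higher, or 4 lower with TMM scaling. *Pink1* was at 22.2 against 43.3 CPM (-0.93 ± 0.076, adjusted p = 9.04e-05) and *Bnip3l*, a mitophagy receptor, at 45.6 against 79.6 CPM.

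**Figure D5:**
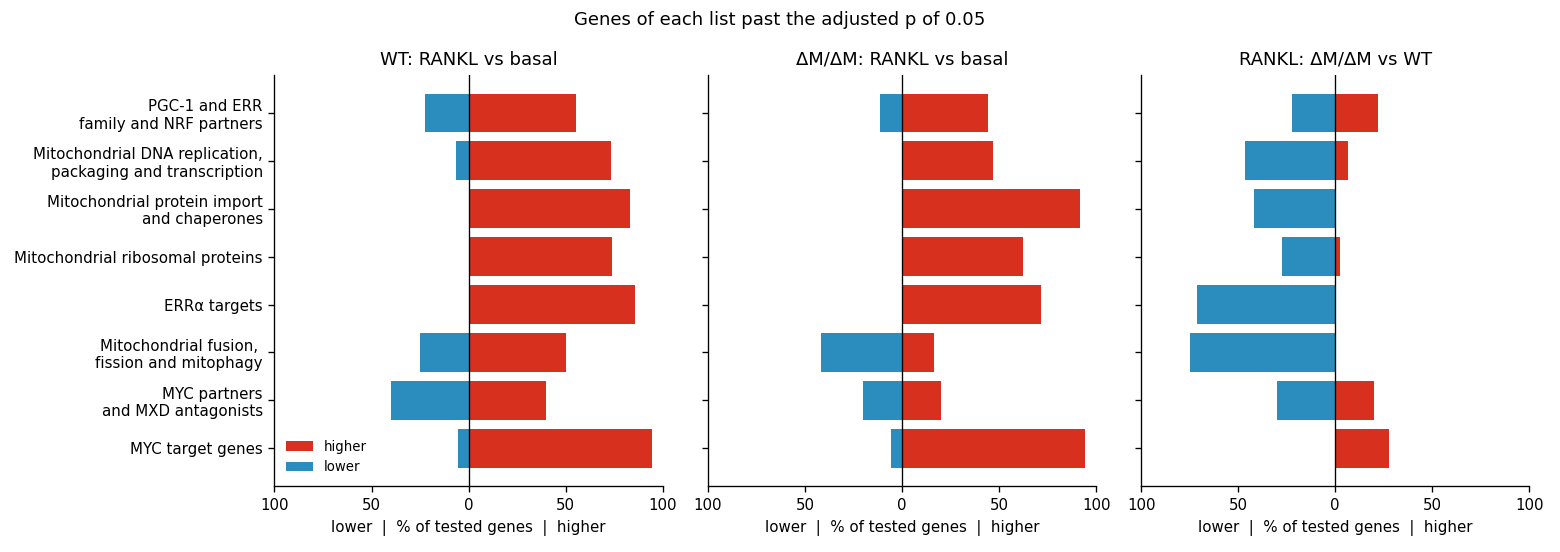
Share of the tested genes of each list (horizontal axis, percent) that were higher (red, right of 0) or lower (blue, left of 0) at an adjusted p under 0.05 in 3 comparisons by limma without scaling factors. In WT cells 17 of 18 MYC target genes rose with RANKL, and 5 of 7 ERRα targets were lower in Mir182-deleted than in WT cells after RANKL.

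Of 18 target genes of MYC, 17 rose with RANKL in each genotype and 1, the cyclin gene *Ccnd2*, fell, with medians of 1.54 in WT and 1.42 in *Mir182*-deleted cells, where 40.6% and 30.4% of all genes rose. *Odc1* and *Srm*, which make polyamines, rose in WT cells from 6.18 to 33.3 CPM (2.27 ± 0.161, adjusted p = 2.00e-05) and from 16.2 to 74.8 CPM, and *Cad*, which makes pyrimidines, from 31.4 to 126 CPM. *Ccnd2* fell from 10.3 to 1.74 CPM in WT and from 19.9 to 3.21 CPM in *Mir182*-deleted cells. No target was called in the interaction by limma, with or without TMM scaling, or by edgeR on the recovered reads. Of all genes, 24.6% were called without TMM scaling, 21.5% with it and 17.8% by edgeR. With the replicate block 8 targets were lower and 3 higher, near the 42.8% and 16.1% of all genes. With Control basal as the WT baseline, however, 16 of 18 were called and all 16 were higher, against 21.5% of all genes. After RANKL 5 of 18 were higher in *Mir182*-deleted than in WT cells and none lower, against 14.3% of all genes that were higher, with *Ldha*, the lactate dehydrogenase gene, at 1013 against 690 CPM (0.55 ± 0.140, adjusted p = 0.0165). With the replicate block 10 were higher and 3 lower, against 23.4% and 49.7% of all genes. Of the 8 cycling markers 6 were also higher there, with sums of 3008 to 3097 against 2298 to 2473 CPM, and their part in these values was not tested. The 18 genes summed to 1712 to 1805 CPM in WT basal, 3359 to 3480 CPM in Control, 4012 to 4229 CPM in WT RANKL and 4746 to 4817 CPM in *Mir182*-deleted RANKL libraries. In Control against WT basal libraries 17 of 18 were higher, against 32.4% of all genes, and *Odc1* was at 49.98 against 6.18 CPM.

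Among the partners and antagonists of MYC, 10 were tested. *Mycl*, a MYC family member, was at a mean of 0.183 CPM in WT and 0.111 CPM in *Mir182*-deleted basal libraries, and was higher after RANKL, at 98.0 CPM (adjusted p = 2.47e-07) and 88.2 CPM (adjusted p = 3.36e-07). The antagonists *Mxd1*, *Mxd3* and *Mxd4* fell with RANKL in WT cells, *Mxd1* from 26.5 to 16.3 CPM (adjusted p = 0.00319). After RANKL *Mxd4* was lower in *Mir182*-deleted than in WT cells, at 14.6 against 34.9 CPM (-1.20 ± 0.096, adjusted p = 8.11e-05), and *Mxd1* was higher, at 28.8 against 16.3 CPM. In all 4 of 10 rose and 4 fell in WT cells, or 2 and 4 with TMM scaling, where 40.6% of all genes rose and 22% fell, or 28.7% and 30.5%. The counts in *Mir182*-deleted cells were 2 that rose and 2 that fell, against 30.4% and 26.4% of all genes. With the replicate block they were 4 and 4, against 42.7% and 36.3%.

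Without RANKL, 8 of 160 genes of these lists differed between *Mir182*-deleted and WT cells, near the 3.81% of all genes. *Hspd1* at 0.39 (adjusted p = 0.0421), *Idh3a* at 0.37 (adjusted p = 0.0291), and the MYC targets *Ccnd2* at 0.89 (adjusted p = 0.00301), *Srm* at 0.57 and *Nop56* at 0.43 were higher. *Pink1* at -0.45 (adjusted p = 0.0251), *Sqstm1* at -0.27 and *Mxd4* at -0.46 were lower. With the replicate block 17 of 18 MYC targets were higher in *Mir182*-deleted basal cells and none lower, against 18.6% of all genes that were higher. In *Mir182*mTg against Control libraries edgeR called none of 161 listed genes, of which 5 had an unadjusted p under 0.05, and DESeq2 and limma called none.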

How the data were processed

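The labels place the 12 RNA-seq libraries of BMMs in 6 conditions with 2 numbered replicates each. The submitters' processing notes name mm10 with TopHat and Cufflinks for replicate 1 and with HISAT2, HTSeq and edgeR for replicate 2, and their versions are not given in the sources used here. The authors deposited CPM for the 8 WT and Mir182-deleted libraries without scaling factors, whose values are whole reads for 100% of genes within 0.02 reads. The authors deposited raw counts for the 4 Control and Mir182mTg libraries, scaled here to CPM. The RPKM that the authors deposited for replicate 1 gave the fixed length per gene used for CPM per kb. No columns of the authors' comparisons were used. A value of 3 reads was 0.0908 to 0.120 CPM.

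CPM were tested with limma (version 3.58.1, trend) on log2(CPM + 1) keeping genes that reached 1 CPM in 2 or more of the 8 libraries, with 4 groups in 1 fit, or with all 12 libraries where Control enters. The raw counts of the other 4 went through the quasi-likelihood test of edgeR (version 4.0.16) after filterByExpr and TMM. P-values were adjusted by Benjamini-Hochberg over all genes tested, with a threshold of 0.05 and no fold cut. Alternatives were other pseudocounts, filters, scalings, edgeR on recovered reads, DESeq2 (version 1.42.0), the replicate block and each library left out. The design took the fit with the replicate block as an alternative. The replicate numbers mark a difference that all conditions share. Differences of replicate 2 from replicate 1 correlated at 0.686 to 0.754 over genes in all 15 pairs of conditions. These pairs include conditions of different experiments, so the values do not show that libraries of the same number came from the same mice. Methods were tested on simulated data. The 7 genes and all lists were chosen with earlier results of these data known. Named list genes are those called with the largest changes, up to 3 per direction, at 5 CPM or more in the higher group. Of the 24421 names 27 had become dates. Some genes that this rule names are not reported here.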

Additional observations from a re-analysis of the deposited data

Results flagged for a closer look

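The RANKL response of *Ppargc1b* differed between the genotypes by -2.31 on the log2 scale (limma interaction, adjusted p = 1.15e-04), with 13.1-fold in WT and 2.36-fold in *Mir182*-deleted cells by the mean CPM. It kept its direction and its call in every alternative with 2 libraries per condition, at adjusted p from 2.81e-13 to 3.24e-04. With each library left out in turn it stayed between -2.40 and -2.22. Every alternative compared *Mir182*-deleted with WT RANKL libraries, which *Lyz2* and *Ifi202b* also set apart. The part of that split in the difference was not tested.

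The response of *Esrra* differed by -0.80 (adjusted p = 0.028). Its direction was the same in every alternative, but the call was lost without the replicate block under TMM factors (adjusted p = 0.0754), quantile normalization (0.0563), edgeR on recovered reads (0.0783) and Control basal as the WT baseline (0.0943, or 0.117 with TMM factors). It was also lost when WT basal 1, WT RANKL 2, *Mir182*-deleted basal 2 or either *Mir182*-deleted RANKL library was left out, at adjusted p from 0.0654 to 0.0907. *Lyz2* and *Ifi202b* set the WT RANKL libraries apart from the WT basal ones, and their part in these differences was not tested.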

How the results depend on the processing

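The replicate block raised the number of members called from 4 to 7 in the WT response and from 3 to 6 in the *Mir182*-deleted response. The shares of all genes called rose from 62.5% to 81.8% and from 56.8% to 79%. Between the genotypes the number rose from 2 to 4 after RANKL (45.1% to 73.2% of all genes) and from 0 to 2 without it (3.81% to 31.2%). In the interaction it rose from 2 to 5 (24.6% to 58.9%). For Control against WT it rose from 3 to 6 (51.9% to 74.9%), and for *Mir182*mTg against Control from 0 to 1 (0.257% to 15.1%). The block removed no member's call, and the members' counts rose as those of all genes did. With the block, TMM factors or edgeR on recovered reads each gave 5 after RANKL, 2 without RANKL and 4 in the interaction. The shares of all genes called were 69.5%, 31.3% and 51.8% with TMM factors, and 67.1%, 29.4% and 47.2% with edgeR. The 5 after RANKL were *Ppargc1b*, *Esrra* and *Gabpa* as lower and *Polg* and *Myc* as higher, and *Tfam* was lost there and in the interaction. In the interaction without the block 1 member, *Ppargc1b*, was called with TMM factors, with quantile normalization or with edgeR. The shares of all genes called were 21.5%, 21.8% and 17.8%. Leaving out each library in turn gave 1 to 2, with *Esrra* lost without WT basal 1, WT RANKL 2, *Mir182*-deleted basal 2 or either *Mir182*-deleted RANKL library.

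Control basal as the baseline turned *Nrf1* in the WT response to -0.19, with or without the block, and to -0.27 with TMM factors. In the interaction it turned *Myc* to 1.15 (1.19 with TMM factors), *Nrf1* to 0.35 (0.39 with TMM factors) and, with the block, *Polg* to 0.15. With the block 5 members were called, against 73.1% of genes. *Tfam*, at -0.24 and called with the block, turned to 0.15 with this baseline, with or without the block, and to 0.18 with TMM factors, without a call. The interaction with this baseline, its block and TMM forms, and the alternatives for Control against WT were chosen after seeing the data. Of 777 member values compared, 63 changed sign without a call in either fit, the largest of them 0.222 on the log2 scale. Of 888 list counts, 196 moved by over 1.5 times. Depth set no limit for the members, which had at least 91 reads in each library, and only 2 libraries per condition limit the error estimate.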
